A study of Homo sapiens with 8 samples.

Results

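The mitochondrially encoded transcripts are the products of the mitochondrial genome itself, here all genes of the deposited tables whose symbol starts with MT-. Of 58302 listed genes, 37 met this rule: 13 messenger RNAs, 2 ribosomal RNAs and 22 transfer RNAs. All 37 identifiers were found in GENCODE release 29 on chromosome M of GRCh38. The messenger RNAs encode core subunits of the respiratory chain and of ATP synthase, and the ribosomal RNAs build the ribosome that translates them inside the organelle. The circular genome is transcribed from both strands into long polycistronic RNAs by the nuclear-encoded polymerase POLRMT with TFAM and TFB2M, and the transfer RNAs between the coding genes are cut out to release the single RNAs. All proteins that transcribe, cut, stabilise, decay and translate these RNAs come from nuclear genes.

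RNA sequencing was done on 8 libraries of A549, an established human lung adenocarcinoma cell line, grown in F12K medium with serum. For the knockdown, a control short hairpin RNA (shRNA) and an shRNA against the receptor tyrosine kinase AXL were each represented by 2 libraries, labelled P15 and P3. For the drug, control cells and cells treated with TP-0903 at 40 nM, a compound made to block AXL, were each represented by 2 libraries, labelled P17 and P4. The study asked which pathways could carry resistance to TP-0903. The sources used here give neither the meaning of the P number nor the hairpin sequences, the handling of the control cells or the length of treatment. All groups come from 1 cell line, and the labels call the 2 libraries of a group biological replicates without saying whether they came from separate cultures, so p-values measure the spread between these libraries. The kind of RNA enriched and the handling of strand are missing there too, which bears on transcripts that lack long poly(A) tails and on genes that overlap on opposite strands.

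Levels of single genes are given in CPM, counts scaled to a common library size with TMM factors. Marker sums and levels per kilobase use CPM on plain library totals and are called total-scaled CPM. AXL, the target of the hairpin, was at 85 CPM in control shRNA P15, 139 in control shRNA P3, 55.4 in AXL shRNA P15 and 62.9 in AXL shRNA P3. AXL was lower in both AXL shRNA libraries than in both of their controls, and its log2 fold change of -0.92 (SE 0.42) did not pass in edgeR's quasi-likelihood test with Benjamini-Hochberg adjustment over all genes (adjusted p = 0.12). With the P number as a block the change was -0.89 (adjusted p = 8.58e-04). In the drug experiment AXL was at 216 and 105 CPM in control and 279 and 153 CPM in TP-0903 (P17 and P4), a change of 0.43 (adjusted p = 0.544, and 0.0354 with the block). Library totals ran from 30067011 to 44217023 expected counts, and mean fragments inferred from the effective lengths were 237 to 249 bases long. All 5 epithelial markers of A549 were above 1 total-scaled CPM in every library. Of 6 blood markers, 2 to 3 were above it in each library. These were CD68 (9.14 to 22.5), CD14 (1.24 to 7.95) and, in AXL shRNA only, CD79A (2.80 and 1.22). PTPRC did not exceed 0.0606. The epithelial sum was 7437 and 6441 total-scaled CPM in control shRNA and 21746 and 18640 in AXL shRNA. It was 8666 and 10368 in control and 10847 and 12143 in TP-0903. The sum was thus higher in each treated library than in the control of the same P number. Each marker was higher with AXL shRNA in both P numbers, but with TP-0903 only KRT7 and KRT8 were. With TP-0903, EPCAM went from 7.36 to 3.82 (P17) and from 7.94 to 3.04 (P4). KRT18 went from 2681 to 2519 and from 3566 to 3388, and CDH1 from 43.2 to 44.3 and from 49.3 to 39.6. The sum of 5 fibroblast markers was 15.8 and 12.1 total-scaled CPM in control shRNA, 24.4 and 39.7 in AXL shRNA, and 9.51 to 18.2 in the drug experiment. That of 3 endothelial markers was 2.96 and 0.345 in control shRNA, 9.08 and 2.94 in AXL shRNA, and 0.637 to 1.77 in the drug experiment. Both sums were higher with the hairpin in each P number. The sum of 6 blood markers was lower in each treated library than in its control (12 to 31.0 over all 8). Most counts of these sums were on COL1A1 and LUM, on CDH5, and on CD14 and CD68. Other markers went the other way with AXL shRNA. PDGFRB went from 0.399 to 0.111 (P15) and from 0.282 to 0.226 (P3), CD79A from 0.366 to 2.80 and from 0.219 to 1.22. HBA1 was higher too. The part of these markers in the members' changes was not tested.

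Sequence shows which of these transcripts can be counted apart. The coding sequences of MT-ATP8 and MT-ATP6 share 46 bases, 22.2% of MT-ATP8, and those of MT-ND4L and MT-ND4 share 7 bases. Both pairs are carried on shared RNAs, so a fragment over the junction belongs to both genes. The start of each shared stretch is shown 5′ to 3′ on the plus strand from the GENCODE release 29 transcripts, with the shared bases in capitals, at chrM:8515-8544 and chrM:10748-10777.
MT-ATP8 to MT-ATP6: ctgagaaccaaaATGAACGAAAATCTGTTC
MT-ND4L to MT-ND4: aaacctactccaATGCTAAaactaatcgtc

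The coding sequences also differ in how they end. Of the 13 messenger RNAs, 7 end in a complete stop codon (TAA in 3, TAG in 2, AGA in 1 and AGG in 1) and 6 end in only its first bases (T in 5 and TA in 1). In the latter the stop codon is completed by the poly(A) tail added after cleavage, so the tail is needed for a proper reading frame end. A link between these ends and the changes below was not tested. The last 24 bases of 4 messenger RNAs are shown as examples, with the bases of the last codon in capitals. They lie at chrM:4239-4262, chrM:9967-9990, chrM:15864-15887 and chrM:14125-14148.
MT-ND1: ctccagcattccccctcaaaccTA
MT-CO3: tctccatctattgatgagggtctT
MT-CYB: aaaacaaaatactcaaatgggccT
MT-ND5: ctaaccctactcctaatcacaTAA

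Mitochondrially encoded transcripts took a larger part of the library after both treatments. They were 3.94% and 5.17% of all expected counts in control shRNA (P15 and P3), 6.79% and 7.78% in AXL shRNA (P15 and P3), 3.68% and 3.58% in control (P17 and P4), and 5.16% and 5.82% in TP-0903 (P17 and P4). Both treated libraries of each experiment were above both of their controls, and the 95% Wilson interval of each share was at most 0.00822 percentage points to either side, which covers counting error only. Group means were 4.55% ± 0.869 for control shRNA, 7.29% ± 0.702 for AXL shRNA, 3.63% ± 0.0719 for control and 5.49% ± 0.468 for TP-0903 (SD, n = 2). With 2 libraries against 2, an exact two-sided permutation test cannot go below 0.333, so shares were not tested.

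The larger share had a different make-up in each experiment. Messenger RNAs took 3.34% and 4.45% of the library in control shRNA and 5.01% and 5.86% in AXL shRNA, a ratio of means of 1.39. Ribosomal RNAs took 0.597% and 0.716% in control shRNA and 1.78% and 1.93% in AXL shRNA, a ratio of 2.83. With TP-0903 the ratios were alike, 1.51 for messenger RNAs (2.99% and 2.84% in control, 4.14% and 4.68% in TP-0903) and 1.5 for ribosomal RNAs (0.697% and 0.745%, then 1.02% and 1.14%). In bulk RNA a larger share cannot be told apart from fewer nuclear transcripts per cell. Of the nuclear-retained RNAs read as a sign of RNA quality, MALAT1 was at 238 and 134 CPM in control shRNA, 336 and 196 in AXL shRNA, 220 and 152 in control, and 240 and 225 in TP-0903. NEAT1 was at 1013 and 759 CPM in control shRNA, 1615 and 947 in AXL shRNA, 891 and 752 in control, and 745 and 592 in TP-0903. Within each P number both were higher with AXL shRNA, whereas with TP-0903 MALAT1 was higher and NEAT1 lower, and their part in the shares was not tested.

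**Figure D1:**
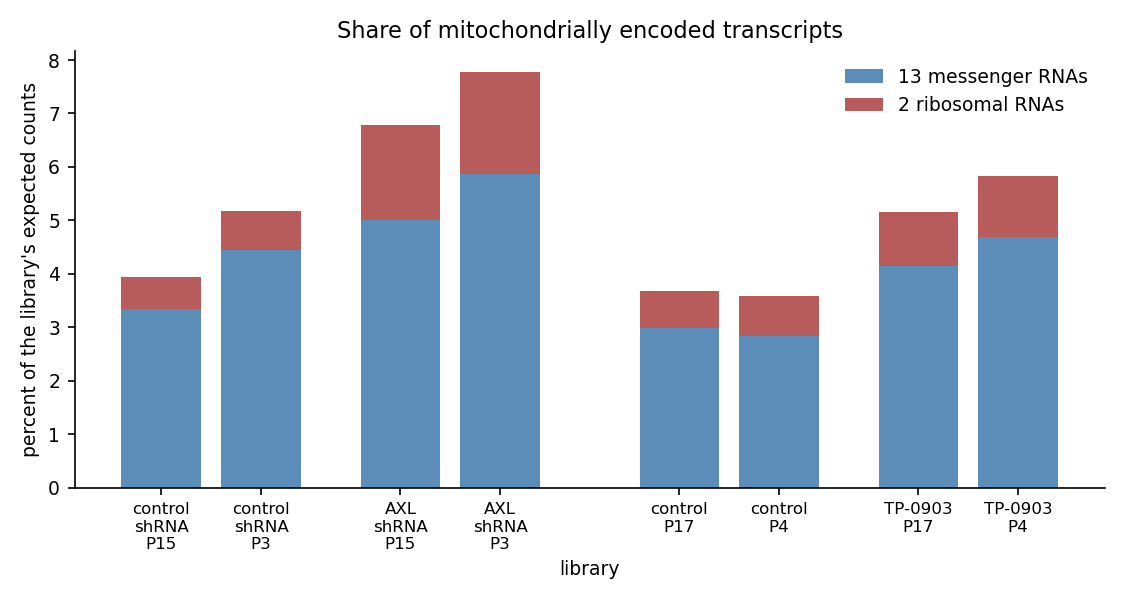
Share of each library's expected counts (percent, y axis) taken by the 13 messenger RNAs and the 2 ribosomal RNAs, stacked, for the 8 libraries. The AXL shRNA libraries reach 6.79% and 7.78% and the TP-0903 libraries 5.16% and 5.82%, and the ribosomal part is largest in AXL shRNA.

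Compared per kilobase of annotated length, since longer transcripts give more fragments, MT-CO1 had a mean of 7501 total-scaled CPM per kilobase over the 8 libraries (4850 to 11111), MT-CO2 7330, MT-CO3 6441 and MT-RNR2 6299, and their ranges overlapped. Which member led differed between groups. By group means per kilobase it was MT-CO3 in control shRNA (7044, against 6093 for MT-CO1), MT-CO1 in AXL shRNA (10793, against 10711 for MT-RNR2), and MT-CO2 in control (5705, against 5176 for MT-CO3) and in TP-0903 (8685, against 7947 for MT-CO1). These encode the 3 core subunits of cytochrome c oxidase (complex IV) and the large ribosomal RNA. The lowest members were MT-RNR1, the small ribosomal RNA, at 1010 total-scaled CPM per kilobase, MT-ND5 at 996 and MT-ND6 at 577, again with overlapping ranges. MT-RNR1 and MT-RNR2 are cut from the same precursor, and 7.20 to 11.9 counts of MT-RNR1 were found per 100 of MT-RNR2 in the 8 libraries. The order within the list depends on the length used. In the deposited TPM, which divide by the effective length left after subtracting the fragment length, MT-ATP8 had rank 1 of 15 with a mean of 31883 TPM, against rank 8 per annotated kilobase, because its effective length was 19.0 to 23.4 bases of 207. For MT-ND4L, with 71.4 to 80.6 of 297 bases, the rank moved from 10 to 5.

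With the AXL hairpin the counts of the ribosomal RNAs rose most. In AXL shRNA against control shRNA, 9 of the 15 members that passed the count filter rose and none fell (edgeR's quasi-likelihood test, adjusted p under 0.05), where 18.5% of all 17676 genes tested rose and 19% fell. Both AXL shRNA libraries were above both control shRNA libraries for 11 members, against 34.5% of all genes, and below both for none, against 35.5%. The median log2 fold change was 0.77 over the members and -0.01 over all genes. With the P number as a block the count was 11 (25.6% of all genes rose).

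MT-RNR1, the small ribosomal RNA at chrM:648-1601, had 514 and 561 CPM in control shRNA and 2058 and 1945 CPM in AXL shRNA (P15 and P3). Its log2 fold change was 1.90 (SE 0.19, adjusted p = 7.24e-04). MT-RNR2, the large ribosomal RNA at chrM:1671-3229, went from 5001 and 6275 CPM to 17343 and 18695 CPM, a log2 fold change of 1.68 (SE 0.18, adjusted p = 9.22e-04). For both RNAs the lower AXL shRNA library stood far above the higher control. Both P numbers showed it, with ratios of 4.0 and 3.47 for MT-RNR1 and 3.47 and 2.98 for MT-RNR2. As the kind of RNA enriched is not given, its part in these counts was not tested.

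Among the 7 subunits of complex I, the NADH dehydrogenase that feeds electrons into the chain, 4 rose and 3 did not pass. MT-ND6, the only messenger RNA annotated on the minus strand (chrM:14149-14673), had 161 and 217 CPM in control shRNA and 486 and 587 CPM in AXL shRNA, a log2 fold change of 1.5 (SE 0.20, adjusted p = 0.0016). MT-ND5, which lies end to end with MT-ND6 on the other strand (chrM:12337-14148), had 1015 and 1384 CPM and then 2779 and 3565 CPM, a change of 1.40 (SE 0.23, adjusted p = 0.00383). The groups of both genes were apart, and these 2 neighbours showed the largest rises among the messenger RNAs. With no record of strand, it is not known whether reads over MT-ND5 and MT-ND6 were assigned by strand. The part of this in both rises was not tested.

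MT-ND4L had 491 and 661 CPM in control shRNA and 874 and 1156 CPM in AXL shRNA, a log2 fold change of 0.82 (SE 0.20, adjusted p = 0.017). MT-ND4, on the same RNA, had 3741 and 5705 CPM and then 7166 and 8975 CPM, a change of 0.77 (SE 0.24, adjusted p = 0.0374). Both pairs of groups were apart, though by less than for the genes above, and these calls were less firm. The call for MT-ND4L was lost without AXL shRNA P3 or control shRNA P15 (change of 0.60 to 1.04 with 1 library left out). On log2 TPM the calls for both genes were lost. The adjusted p of MT-ND4L ran up to 0.179 over all alternatives. The call for MT-ND4 was lost without any 1 of 6 libraries (AXL shRNA P15 or P3, control shRNA P15, control P17 or P4, TP-0903 P4), with adjusted p between 0.0514 and 0.166.

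The other complex I messenger RNAs spread widely within a group. MT-ND1 had 1526 and 3024 CPM in control shRNA and 3040 and 4621 CPM in AXL shRNA, so that the libraries of P3 were above those of P15 in both groups. Its log2 fold change of 0.75 (SE 0.34) did not pass without the block (adjusted p = 0.126) and passed with it (0.80, adjusted p = 0.00159). MT-ND3 had 629 and 936 CPM and then 903 and 1101 CPM, a change of 0.36 (adjusted p = 0.199, and 0.0267 with the block). MT-ND2 had 2619 and 4224 CPM and then 3737 and 4872 CPM, a change of 0.33 that passed neither without nor with the block (adjusted p = 0.322 and 0.0613). For MT-ND2 and MT-ND3 the groups overlapped.

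The 3 subunits of complex IV, which passes electrons to oxygen, did not move alike. MT-CO1, which holds the oxygen-reducing centre (chrM:5904-7445), had 7951 and 9727 CPM in control shRNA and 17561 and 18363 CPM in AXL shRNA, a log2 fold change of 1.02 (SE 0.19, adjusted p = 0.00552). MT-CO2, which takes electrons from cytochrome c, had 3627 and 4014 CPM and then 6323 and 6942 CPM. Its change was 0.80 (SE 0.15, adjusted p = 0.00566). This call was lost on log2 TPM, and its adjusted p ran up to 0.152 over all alternatives. MT-CO3 (chrM:9207-9990) had 4131 and 6279 CPM and then 4881 and 5363 CPM. Its AXL shRNA libraries lay between its controls, and its change was -0.02 (SE 0.21, adjusted p = 0.939), with a sign that turned with the P number as a block (0.01) and without control shRNA P3 (0.30).

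MT-ATP8 and MT-ATP6 encode subunits of ATP synthase from 1 shared RNA. MT-ATP8 had 436 and 455 CPM in control shRNA and 593 and 602 CPM in AXL shRNA, a log2 fold change of 0.42 (SE 0.12, adjusted p = 0.0259). This call was lost without any 1 of the 4 shRNA libraries (adjusted p 0.0753 to 0.106) and with effective lengths as offsets (0.36, adjusted p = 0.115), and its adjusted p ran up to 0.761 over all alternatives. MT-ATP6 had 2350 and 3088 CPM and then 3335 and 3490 CPM, a change of 0.33 (SE 0.17) that did not pass (adjusted p = 0.158). MT-CYB, the catalytic subunit of complex III, had 2197 and 2797 CPM and then 2753 and 3164 CPM. Its groups overlapped, and its change of 0.24 (SE 0.17) did not pass (adjusted p = 0.289).

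**Figure D2:**
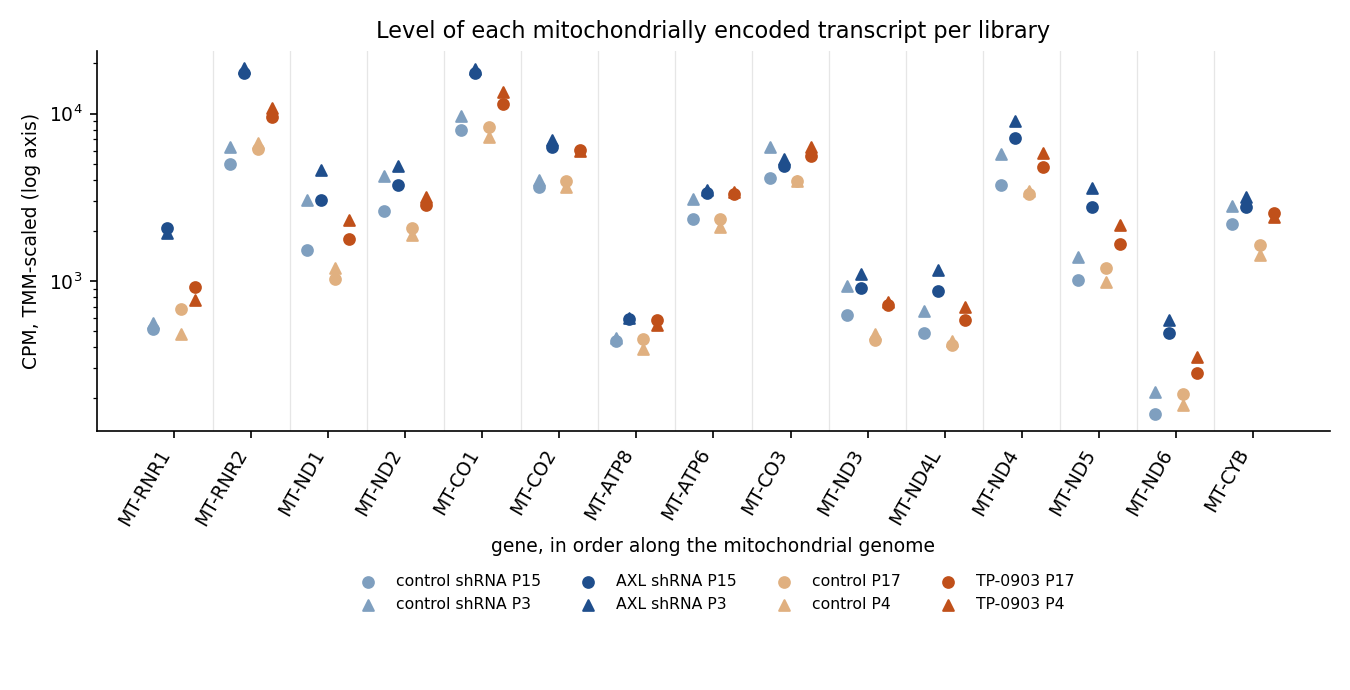
TMM-scaled CPM (log axis) of the 13 messenger and 2 ribosomal RNAs in each of the 8 libraries, in genome order, with circles for P15 and P17 and triangles for P3 and P4. The AXL shRNA points of MT-RNR1, MT-RNR2, MT-ND5 and MT-ND6 stand clear of all other groups, while those of MT-CO3 lie between their controls.

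The make-up of the mitochondrial RNA pool in AXL shRNA differed from that in the other groups. Counts of ribosomal RNA per 100 counts of messenger RNA were 17.9 and 16.1 in control shRNA, 35.6 and 32.9 in AXL shRNA, 23.3 and 26.2 in control, and 24.7 and 24.3 in TP-0903. Counts of MT-ND6 per 1000 counts of the 12 other messenger RNAs, all annotated on the plus strand, were 5.24 and 5.14 in control shRNA, 9.0 and 9.44 in AXL shRNA, 7.30 and 6.70 in control, and 6.75 and 7.43 in TP-0903. On both measures AXL shRNA was the highest group, control shRNA the lowest, and control and TP-0903 overlapped between them. The kind of RNA enriched and the handling of strand are not given, and their part in both measures was not tested.

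Within the 13 messenger RNAs, MT-CO3 made up 13.4% and 14.8% of the counts in control shRNA and 8.97% and 8.54% in AXL shRNA, a ratio of means of 0.622. MT-CYB went from 7.12% and 6.58% to 5.06% and 5.04%. MT-CO1 went from 25.8% and 22.9% to 32.3% and 29.2%, and MT-ND5 from 3.29% and 3.26% to 5.11% and 5.68%. None of these shares overlapped between both groups. They are parts of a whole, so a rise of 1 RNA lowers the share of the rest. With TP-0903 the ratio of mean shares to control stayed between 0.854 (MT-ATP8) and 1.15 (MT-ND1) for all 13.

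**Figure D3:**
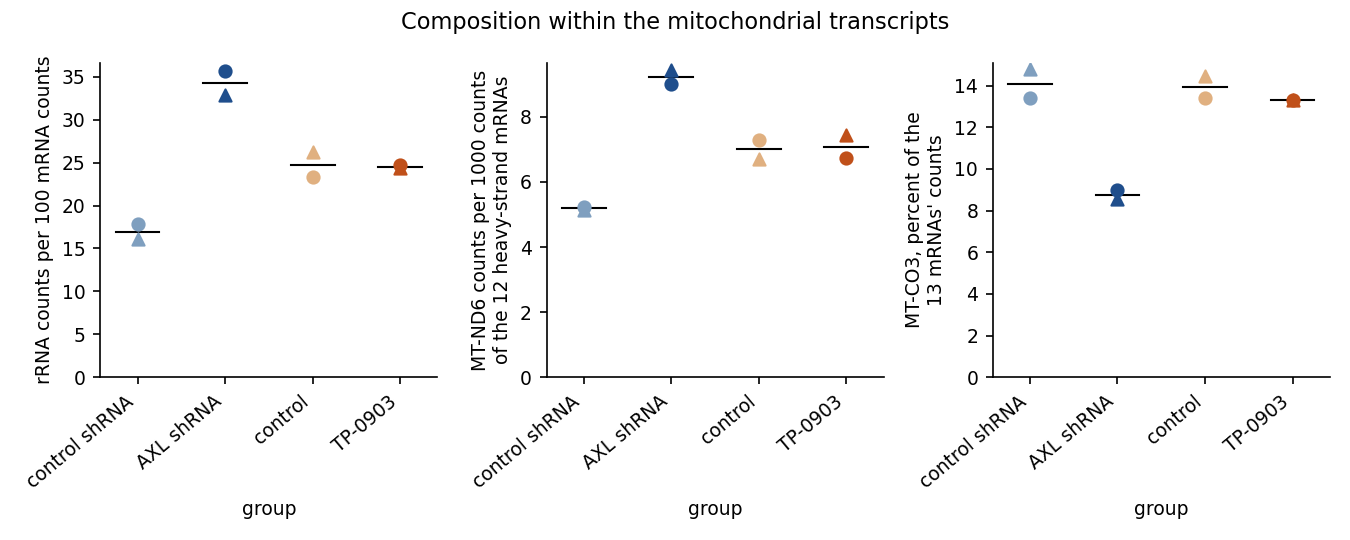
Counts of ribosomal RNA per 100 messenger RNA counts, of MT-ND6 per 1000 counts of the 12 other messenger RNAs, and the percent of messenger RNA counts on MT-CO3, per library (points; circles P15 and P17, triangles P3 and P4) with the group mean (line). AXL shRNA stands at 35.6 and 32.9, at 9.0 and 9.44, and at 8.97% and 8.54%, apart from the other groups in each panel.

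All members were higher with TP-0903, by amounts close to each other. In TP-0903 against control, all 15 log2 fold changes were positive, from 0.42 (MT-ATP8) to 0.88 (MT-ND1), with a median of 0.66 over the members and -0.02 over all genes. Both TP-0903 libraries were above both controls for all 15, against 28.9% of all genes. Only MT-CO2 and MT-CYB passed, 2 of 15 (edgeR, adjusted p under 0.05), where 4.9% of all genes tested rose, and all 15 had an unadjusted p of 0.00223 to 0.0416. With the P number as a block all 15 rose (adjusted p 0.00273 to 0.0227), where 12.9% of all genes rose.

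MT-CO2 had 3961 and 3627 CPM in control and 6071 and 5983 CPM in TP-0903 (P17 and P4), a log2 fold change of 0.67 (SE 0.15, adjusted p = 0.029). MT-CYB had 1645 and 1426 CPM and then 2527 and 2416 CPM, a change of 0.69 (SE 0.17, adjusted p = 0.0432). Within each gene the 2 treated libraries were close to each other and well above both controls. Neither call held without any 1 of the 4 libraries of this experiment (adjusted p 0.0848 to 0.142 for MT-CO2 and 0.108 to 0.206 for MT-CYB), and no member passed in those fits. MT-CYB was also lost without either AXL shRNA library (0.0586 and 0.0609).

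The ribosomal RNAs had changes like those of the messenger RNAs here. MT-RNR2 had 6152 and 6696 CPM in control and 9496 and 10743 CPM in TP-0903, a log2 fold change of 0.66 (SE 0.18, adjusted p = 0.0577, and 0.0109 with the block). MT-RNR1 had 681 and 484 CPM and then 914 and 773 CPM, a change of 0.53 (SE 0.18, adjusted p = 0.109, and 0.0128 with the block). MT-CO3, whose share was lower in AXL shRNA, had 3929 and 3958 CPM and then 5603 and 6308 CPM, a change of 0.59 (SE 0.21, adjusted p = 0.119, and 0.0227 with the block). No TP-0903 library of these 3 genes came below the higher control.

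Complex I messenger RNAs had log2 fold changes of 0.59 to 0.88 in TP-0903. MT-ND1 had 1031 and 1197 CPM in control and 1772 and 2318 CPM in TP-0903, a change of 0.88 (SE 0.35, adjusted p = 0.148, and 0.00273 with the block). MT-ND5 had 1198 and 985 CPM and then 1656 and 2160 CPM, a change of 0.81 (SE 0.23, adjusted p = 0.0649, and 0.00878 with the block). MT-ND6 had 212 and 182 CPM and then 282 and 349 CPM, a change of 0.68 (SE 0.19, adjusted p = 0.0653, and 0.00854 with the block). For MT-ND5 and MT-ND6 the ratio of treated to control was larger for P4 (2.19 and 1.92) than for P17 (1.38 and 1.33), while over the 15 members the ratios ran from 1.39 to 2.19 for P4 and from 1.30 to 1.72 for P17. The 4 other complex I genes (MT-ND2, MT-ND3, MT-ND4 and MT-ND4L), MT-CO1, MT-ATP6 and MT-ATP8 had adjusted p of 0.0579 to 0.157, and 0.0043 to 0.0191 with the block.

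**Figure D4:**
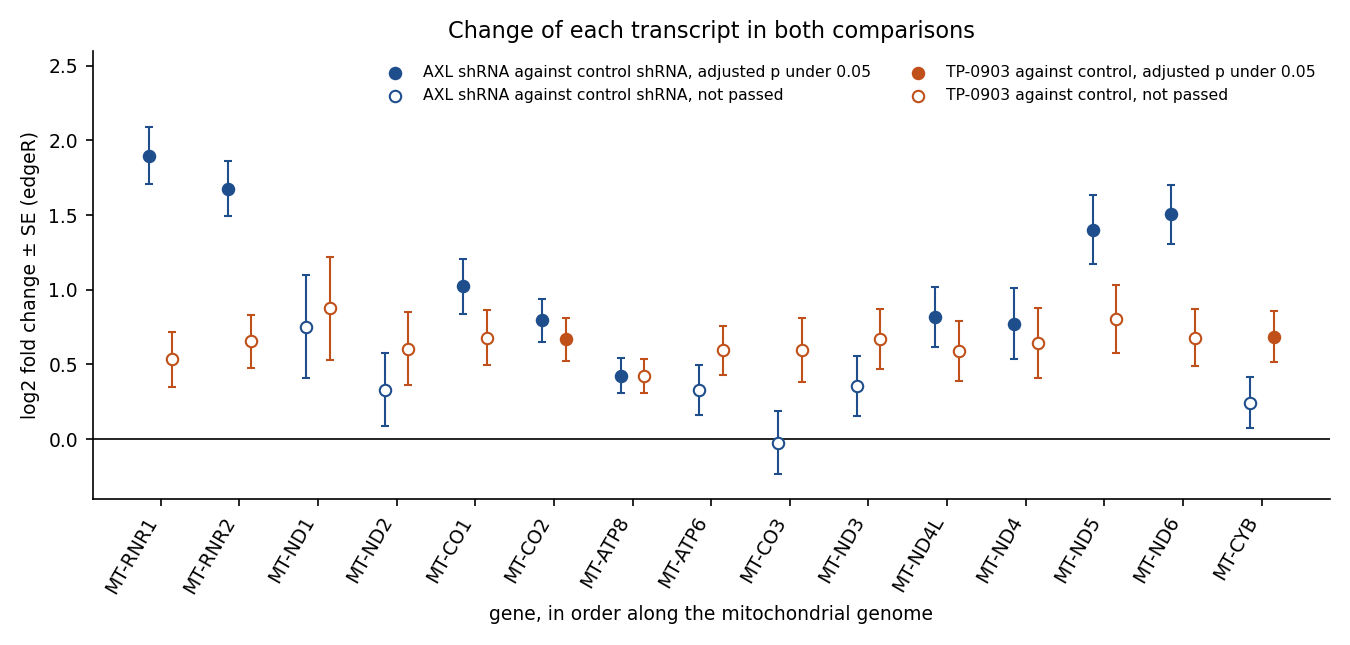
Log2 fold change from edgeR, with an SE derived from its F statistic, for each member in genome order. Blue is AXL shRNA against control shRNA and orange is TP-0903 against control. Filled points have an adjusted p under 0.05. The orange points lie between 0.42 and 0.88, while the blue points run from -0.02 at MT-CO3 to 1.90 at MT-RNR1.

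A test of the difference between both effects asked which members responded unequally to the drug and the hairpin. The effect of TP-0903 minus that of AXL shRNA was -1.36 for MT-RNR1 (SE 0.26, adjusted p = 0.0124, edgeR) and -1.02 for MT-RNR2 (SE 0.25, adjusted p = 0.0289). These 2 of 15 members passed, both lower, where 10.8% of all genes were lower and 9.82% higher. The call for MT-RNR1 held in all alternatives, while that for MT-RNR2 was lost without any 1 library other than control shRNA P3 (adjusted p 0.0557 to 0.0892) and on log2 TPM (0.126). With the block, MT-ND6 also passed, at -0.84 (adjusted p = 0.0108, against -0.82 and 0.0714 without it), where 18.4% of all genes were lower. The difference was 0.62 for MT-CO3 (SE 0.30, adjusted p = 0.187) and -0.60 for MT-ND5 (SE 0.32, adjusted p = 0.228), and neither passed. For the remaining 10 members it lay between -0.34 (MT-CO1) and 0.44 (MT-CYB), with adjusted p of 0.231 or more. Across the 15 members the changes spanned 1.92 on the log2 scale with AXL shRNA and 0.45 with TP-0903. The SEs of the TP-0903 changes were 0.12 to 0.35, so the order of those changes is not well resolved. With that limit, the changes in both experiments had a Pearson r of 0.16 and a Spearman rho of 0.07. This is a description, as the members share libraries and precursor RNAs.

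The 2 kinds of control were also set against each other. In control shRNA against control, 1 of 15 members passed, MT-CYB at 0.70 (SE 0.17, adjusted p = 0.0461, edgeR), where 3.06% of all genes were higher and 9.15% passed in either direction. This call was lost without any 1 of the 8 libraries (adjusted p 0.0614 to 0.184). Both control shRNA libraries were above both controls for 8 of 15 members, against 28.7% of all genes, and below both for none, against 28.4%. MT-ND1 (1.03, SE 0.35, adjusted p = 0.109), MT-ND2 (0.79, SE 0.25, adjusted p = 0.0904) and MT-ND3 (0.76, SE 0.20, adjusted p = 0.0591) had larger differences that did not pass, and the ribosomal RNAs had -0.12 (MT-RNR1) and -0.19 (MT-RNR2). The hairpin vector and the P numbers cannot be told apart in this comparison, which shares its libraries with the comparisons above.

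Nuclear copies of mitochondrial genes could take reads that belong to the members. The files list 405 such copies by symbol, 52 of them with any count, and 99.7% of their 104426 counts fell on MTATP6P1, MTND2P28 and MTCO1P12, a stretch of chromosome 1 between 629640 and 634376. These are 98.5%, 98.4% and 98.7% identical to MT-ATP6, MT-ND2 and MT-CO1, with 10, 17 and 20 mismatches and identical runs of up to 141, 266 and 245 bases. A mismatch near the start of MT-ATP6 (chrM:8531-8560) and MTATP6P1 (chr1:633700-633729) is in capitals.
MT-ATP6: acgaaaatctgttcGcttcattcattgccc
MTATP6P1: acgaaaatctgttcActtcattcattgccc

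For every 100 counts on MT-ATP6 there were 8.02 to 9.17 on its copies in the 8 libraries, against 2.26 to 2.57 for MT-ND2 and 0.302 to 0.361 for MT-CO1. MTCO1P12 had a log2 fold change of 1.03 in AXL shRNA against control shRNA (adjusted p = 0.00144), beside 1.02 for MT-CO1. MTATP6P1 had 0.35 (adjusted p = 0.0629, and 0.0218 with the block) beside 0.33 for MT-ATP6, and MTND2P28 had 0.24 (adjusted p = 0.397) beside 0.33 for MT-ND2. In TP-0903 against control the copies had 0.65 (MTCO1P12, adjusted p = 0.0217), 0.57 (MTATP6P1, adjusted p = 0.0291) and 0.63 (MTND2P28, adjusted p = 0.102, and 0.00238 with the block). Both calls were lost without any 1 of the 4 libraries of that experiment (adjusted p 0.0812 to 0.143). Each copy's change differed from that of its parent by less than the parent's SE, and adding the copies to the members left 9 and 2 members called.

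Nuclear-encoded partners in the same complexes moved in both directions with AXL shRNA. Of 72 nuclear respiratory subunits, 18 rose and 10 fell against control shRNA, where 18.5% of all genes rose and 19% fell. With the block 25 rose and 15 fell, where 25.6% and 26.1% of all genes did. The median without the block was 0.10, against 0.77 for the members. UQCRH, a complex III subunit named after its values were seen as the largest rise, had 79.9 and 74.4 CPM in control shRNA and 155 and 153 CPM in AXL shRNA (1.00, adjusted p = 7.01e-04). Of 78 mitochondrial ribosomal protein genes, whose products assemble on the ribosomal RNAs, 12 rose and 26 fell, beside 18.5% and 19% of all genes. With the block 19 rose and 29 fell, beside 25.6% and 26.1% of all genes. Their median without the block was -0.16. The extremes, also named after their values were seen, were MRPL32 (1.08, adjusted p = 4.86e-04) and MRPL11 (-1.38, adjusted p = 0.00151). In TP-0903 against control, 1 of 72 respiratory subunits passed, the complex I subunit NDUFC1 (-0.59, adjusted p = 0.038), lost without any 1 library (0.0509 to 0.197), and none rose. Of the ribosomal protein genes 6 of 78 fell and none rose, with a median of -0.14, where 6.35% of all genes fell. With the block 1 rose and 13 fell, where 12.9% and 13.4% of all genes did.

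**Figure D5:**
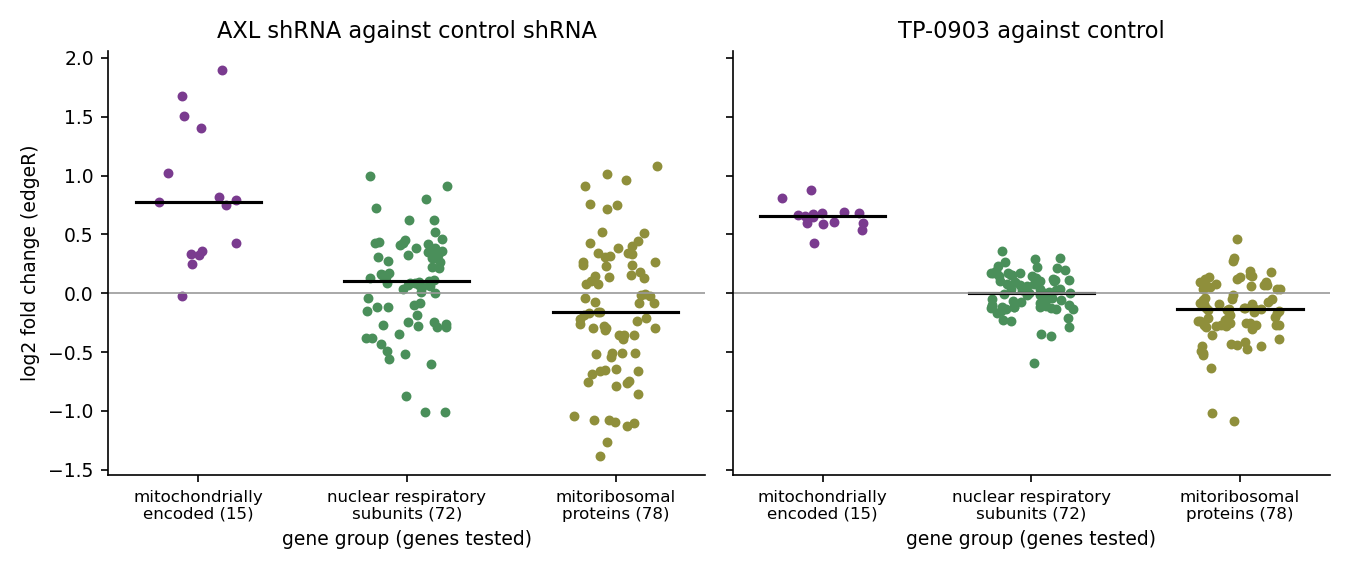
Log2 fold change (edgeR, y axis) of the 15 mitochondrially encoded transcripts, 72 nuclear respiratory subunits and 78 mitoribosomal protein genes in both comparisons, 1 point per gene with the group median as a line. The medians of the encoded transcripts are 0.77 and 0.66, and those of the nuclear groups lie between -0.16 and 0.10.

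Of 16 genes for the transcription and upkeep of the mitochondrial genome, none rose and 4 fell with AXL shRNA (edgeR, adjusted p under 0.05). Of all genes 18.5% rose and 19% fell. With the block 3 rose and 4 fell, where 25.6% and 26.1% of all genes did. Those that fell were the helicase TWNK (-0.68, adjusted p = 0.00704), the polymerase subunit POLG2 (-0.70, adjusted p = 0.0117), the primase PRIMPOL (-0.69, adjusted p = 0.0196) and the ribosome assembly protein MTERF4 (-0.82, adjusted p = 0.0309), which was named after its values were seen. The calls for POLG2, PRIMPOL and MTERF4 were each lost without 1 of the shRNA libraries: AXL shRNA P15 for all 3 (adjusted p = 0.0539, 0.0555 and 0.134), AXL shRNA P3 for PRIMPOL (0.0872) and MTERF4 (0.0599), control shRNA P15 for PRIMPOL (0.0808), and control shRNA P3 for POLG2 (0.0621) and MTERF4 (0.156). The polymerase POLRMT had 59.6 and 73.9 CPM in control shRNA and 56.2 and 53.9 CPM in AXL shRNA (-0.28, adjusted p = 0.114). Its factors TFAM (0.28, adjusted p = 0.102, and 0.044 with the block), TFB2M (0.28, adjusted p = 0.0749, and 0.0483 with the block) and the elongation factor TEFM (0.15, adjusted p = 0.537) did not pass without the block.

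Over all 66 tested genes that transcribe, process, decay, translate or regulate mitochondrial RNA, 11 rose and 13 fell in AXL shRNA. Their median was -0.05. These counts are near the 18.5% and 19% of all genes that rose and fell. With the block 17 rose and 15 fell, where 25.6% and 26.1% of all genes did. ELAC2, which cuts transfer RNAs at their 3′ side, had 92.9 and 102 CPM in control shRNA and 171 and 175 CPM in AXL shRNA (0.83, adjusted p = 0.0014). FASTKD5, which acts where no transfer RNA marks the cut, had 58.5 and 55.5 CPM and then 102 and 112 CPM (0.91, adjusted p = 0.00159). PTCD2, a processing factor tied to the MT-CYB transcript, had 28.1 and 33.7 CPM and then 13.4 and 13.6 CPM (-1.19, adjusted p = 0.00161). Groups of these 3 genes, which were chosen by smallest p, were apart, with 2 higher and 1 lower with the hairpin. Of all genes 34.5% were above and 35.5% below both controls.

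LRPPRC and SLIRP form the complex that protects mitochondrial messenger RNAs. SLIRP fell (-0.35, adjusted p = 0.0344), a call lost with DESeq2 and without any 1 library (adjusted p 0.0551 to 0.15), and LRPPRC had -0.14 (adjusted p = 0.671). PDE12, which removes poly(A) tails in the matrix, fell (-0.58, adjusted p = 0.0114). The initiation factor MTIF3 fell from 20.6 and 17.3 CPM to 5.88 and 5.28 CPM (-1.76, adjusted p = 5.58e-04) and the release factor MTRF1L fell (-0.64, adjusted p = 0.014), while the ribosome assembly factor MPV17L2 rose (0.79, adjusted p = 0.0109). PDE12, MTRF1L and MPV17L2 did not pass without AXL shRNA P15 or without control shRNA P3 (adjusted p 0.0574 to 0.0697).

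Among regulators, the matrix protease LONP1, known to degrade TFAM, had 145 and 200 CPM in control shRNA and 33.8 and 28.1 CPM in AXL shRNA (-2.48, adjusted p = 3.71e-04). MYC had 97.1 and 148 CPM and then 287 and 287 CPM (1.23, adjusted p = 0.00353), and the coactivator PPRC1 had 65.9 and 75.8 CPM and then 132 and 120 CPM (0.83, adjusted p = 0.00246). The groups of all 3, also chosen by smallest p, were apart, where 34.5% of all genes were above and 35.5% below both controls. PPARGC1A, the best known coactivator of mitochondrial genes, had 22.7 and 7.06 CPM in P15 (control shRNA and AXL shRNA) and 0.509 and 0.194 CPM in P3, so that it differed more between P numbers than between groups (-1.69, SE 2.02, adjusted p = 0.544, and 0.00231 with the block).

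In TP-0903 against control, 1 of the 66 genes rose and 4 fell, where 4.9% of all genes rose and 6.35% fell, with a median of -0.14. With the block 2 rose and 12 fell (12.9% and 13.4% of all genes). The ribosome recycling factor GFM2 had 58.2 and 61.5 CPM in control and 97.3 and 87.1 CPM in TP-0903 (0.62, adjusted p = 0.0105). The transcription factor NRF1, a regulator of nuclear genes for mitochondrial proteins, had 17.5 and 15 CPM and then 7.65 and 7.55 CPM (-1.10, adjusted p = 0.00589). PRIMPOL (-1.24, adjusted p = 0.00613), GABPA, another such regulator (-0.53, adjusted p = 0.0465), and C12orf65, a release factor homologue (-0.49, adjusted p = 0.0369), fell too. TFAM had 113 and 93.7 CPM and then 78.4 and 73.7 CPM (-0.44, adjusted p = 0.0539, and 0.0133 with the block). It was below both controls, as were 30.9% of all genes. The 15 encoded transcripts were above theirs, as were 28.9% of all genes. No nuclear call of this comparison held throughout: PRIMPOL was lost without TP-0903 P17 (adjusted p = 0.0675), GFM2 and NRF1 without TP-0903 P17 (0.0956 and 0.0581) or control P17 (0.0789 and 0.0516), and GABPA and C12orf65 without any 1 of the 4 libraries of the experiment (0.11 to 0.273) or either control shRNA library (0.0563 to 0.0716). POLRMT had 0.04, TFB2M 0.01, TEFM -0.18, LRPPRC -0.01 and SLIRP -0.15 (adjusted p 0.391 to 0.979), and PPARGC1A had -1.19 (adjusted p = 0.76, and 0.0164 with the block).

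For the difference between both effects, 5 of the 66 genes were higher and 12 lower, where 9.82% of all genes were higher and 10.8% lower (9 and 14 genes with the block, 18.6% and 18.4% of all genes). Higher with TP-0903 relative to AXL shRNA were LONP1 (2.04, adjusted p = 0.00248), MTIF3 (2.0, adjusted p = 0.00199), MTRF1L (1.07, adjusted p = 0.0131), PDE12 (0.69, adjusted p = 0.0353) and GFM2 (0.60, adjusted p = 0.0258). Among the lower were MYC (-1.61), PPRC1 (-1.13), MGME1 (-0.81), MTERF3 (-0.79), TFAM (-0.72), ELAC2 (-0.68), FASTKD5 (-0.64) and TRNT1 (-0.62), with adjusted p of 0.00541 to 0.0492. Of the 13 genes named in the last 2 sentences, only LONP1, MTIF3, MYC and PPRC1 passed in every alternative, and the other 9 were each lost in at least 1 of them. POLRMT, TFB2M, TEFM, LRPPRC, SLIRP and PPARGC1A did not pass (adjusted p 0.237 to 0.925).

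In control shRNA against control, none of the 66 genes rose and 9 fell, where 6.09% of all genes fell. The transfer RNA end-adding enzyme TRNT1 fell by 0.80 on the log2 scale (adjusted p = 0.00496), and ELAC2 (-0.56), SLIRP (-0.54), MGME1 (-0.61), PRIMPOL (-0.74), TACO1 (-0.50) and TSFM (-0.39) had adjusted p of 0.0225 to 0.0452. The call for TRNT1 alone among these 7 held in every alternative. POLRMT, TFAM, TFB2M, TEFM, LRPPRC and PPARGC1A did not pass (adjusted p 0.14 to 0.919).

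Transfer RNAs were barely seen. Over all 8 libraries the 22 genes had 76 counts, 6 to 18 per library, and none passed the count filter. MT-TA had 31 counts, MT-TS1 11 and MT-TE 7, and 11 genes had none, which allows up to 3 counts for each over a library, or 6.78e-06% to 9.98e-06% of its total. They are 59 to 75 bases long, shorter than the mean fragment, and RSEM gave each an effective length of 0 and a TPM of 0, so these values do not measure how much transfer RNA the cells held.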

How the data were processed

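Each library had gene tables of RSEM with expected counts, TPM and transcript lengths, deposited by the authors as estimates per gene. Per the submitters' processing notes, STAR 2.5.3a, RSEM and GRCh38 were used. Annotation, RNA selection and strand: not given in the sources used here. TPM are the authors' values per effective length and library, per the file headers, and the length columns are deposited beside them. Because RSEM assigns shared reads by likelihood, overlapping genes and nuclear copies hold estimated parts.

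After rounding the expected counts to integers, filterByExpr kept the genes tested (17676, of which 15 members). They were scaled by TMM (factors 0.92 to 1.08) and fitted over all 8 libraries in edgeR 4.0.16 (R 4.3.3, prior degrees of freedom 3.334) by the quasi-likelihood test, with Benjamini-Hochberg adjustment over all genes and a threshold of 0.05. The scripts were tested on simulated data. Each SE is the absolute log2 fold change divided by the square root of edgeR's F statistic. DESeq2 1.42.0 and limma 3.58.1, the latter on voom values and on log2(TPM + 1), were alternatives, besides the settings of the closing section. Sequences and positions came from GENCODE release 29 with Biopython 1.88 (Python 3.11.15).

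Same-numbered libraries deviated together from their group means, with a correlation over genes of 0.44 for the shRNA groups and 0.45 for the drug groups, against 0.17 to 0.31 for libraries of different experiments matched by the order of their P numbers. With 2 pairs an experiment and no meaning given for the P number, it was kept as an alternative block. Within groups, 49.8% to 55.8% of genes differed between the 2 libraries by more than counting error, so no 2 files hold the same counts; whether libraries share a culture is not shown by this.

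All tested members were named. Of nuclear lists, up to 3 called genes per list and comparison with the smallest p, and POLRMT, TFAM, TFB2M, TEFM, LRPPRC, SLIRP and PPARGC1A in every comparison, were named. MTERF4, UQCRH, MRPL32, MRPL11 and NDUFC1 were named after their values were seen. The members and lists were chosen with earlier results of these data known.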

Additional observations from a re-analysis of the deposited data

Results flagged for a closer look

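For 2 members the change with TP-0903 differed from that with AXL shRNA in a test of the difference itself. The effect of TP-0903 minus that of AXL shRNA was -1.36 on the log2 scale for MT-RNR1 and -1.02 for MT-RNR2 (edgeR's quasi-likelihood test, adjusted p = 0.0124 and 0.0289). Both ribosomal RNAs were higher in every treated library than in the control of the same P number, by 3.47 and 4.0 times for MT-RNR1 with AXL shRNA and by 1.34 and 1.60 times with TP-0903. The drug and the hairpin were compared with different controls under different P numbers, so the agent and the experiment cannot be told apart in this difference.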

How the results depend on the processing

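Of the 14 member calls over the 4 comparisons, 6 held under every alternative (MT-CO1, MT-ND5, MT-ND6, MT-RNR1 and MT-RNR2 in AXL shRNA, and MT-RNR1 in the difference of effects), and no called value changed sign. With the P number as a replicate block, TP-0903 raised 15 members (12 with the P number in 2 levels), against 2 without it. The count there was 14 with DESeq2 or no count filter, 4 with limma-voom or the 4 libraries alone, and 0 on log2 TPM. AXL shRNA raised 5 members on log2 TPM, and 1 was lower there in the difference of effects. Control shRNA over control gave 4 (DESeq2, and block in 2 levels), 2 (library totals only), 5 (no count filter) and 0 (log2 TPM, and 4 libraries alone). Leaving out 1 library gave 6 to 10 members higher in AXL shRNA, 0 to 4 in TP-0903, 0 to 1 in control shRNA, and in the difference 0 to 1 higher and 1 to 3 lower. For all genes, AXL shRNA gave 2008 to 4523 higher and 2308 to 4732 lower, and TP-0903 gave 128 to 2285 higher and 361 to 2362 lower. Library totals and log2 TPM moved the median of all genes in AXL shRNA by -0.20 and -0.13, with the members' median at 0.58 and 0.54. As shares of TPM the members were 16.5% (AXL shRNA), 14.9% (TP-0903), 9.97% (control) and 12.5% (control shRNA), and with a nuclear-only denominator the control share was 3.77%. In TPM, rRNA per 100 mRNA was 13.7, 8.89, 8.73 and 6.13, and MT-ND6 per 1000 was 15.7, 11.3, 10.7 and 8.11, in the same order of groups.

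Signs turned for uncalled values only, and the cause was not tested. In AXL shRNA these were MT-CO3 (0.0038 with DESeq2 or its size factors, 0.0061 with voom, 0.0065 with the block), MT-CYB (-9.8e-05 on log2 TPM) and TEFM (-0.055 on library totals, -0.13 on log2 TPM). In the difference of effects, MT-ATP8 was 0.13 (effective lengths), 0.14 (totals), 0.30 (log2 TPM), 0.00041 (voom), 0.022 (no filter, and nuclear scaling) and 0.00067 (block). MT-CO2 (0.0096 and 0.11) and MT-ND4 (0.0047 and 0.065) turned on totals and log2 TPM, MT-ND4L on log2 TPM (0.039), and PPARGC1A with voom (-0.24) and the block in 2 levels (-0.0023). In TP-0903, LRPPRC was 0.0059 (DESeq2 or its size factors), 0.034 (effective lengths) and 0.0034 (4 libraries alone), POLRMT -0.11, -0.024 and -0.14 (effective lengths, totals, log2 TPM), and TFB2M -0.050 and -0.016 (totals, log2 TPM).

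Leaving out 1 library turned further signs, with these ranges. In AXL shRNA, LRPPRC ran from -0.44 to 0.21, MT-CO3 from -0.31 to 0.30, MTND2P28 from -0.035 to 0.56 and PPARGC1A from -5.88 to 2.81. In the difference, LRPPRC ran from -0.22 to 0.44, MT-ATP8 from -0.071 to 0.11, MT-ND1 from -0.45 to 0.56, MT-ND2 from -0.11 to 0.61, MT-ND4 from -0.46 to 0.17 and PPARGC1A from -4.01 to 4.69. In TP-0903, AXL ran from -0.064 to 1.06, LRPPRC from -0.21 to 0.17, POLRMT from -0.0078 to 0.10, TFB2M from -0.027 to 0.084 and PPARGC1A from -5.70 to 1.59. In control shRNA over control, AXL ran from -0.94 to 0.10, LRPPRC from -0.15 to 0.49, MT-ATP8 from -0.0021 to 0.18, MT-CO2 from -0.065 to 0.092, MT-ND5 from -0.11 to 0.35, MT-ND6 from -0.29 to 0.15, MT-RNR1 from -0.33 to 0.15, POLRMT from -0.079 to 0.24, TFB2M from -0.076 to 0.13 and PPARGC1A from -2.64 to 4.6. In a fit that leaves a group with 1 library, that library is assumed to vary like the other groups.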
